A study of Mus musculus with 6 samples.

Results

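The genes described here encode the CD3 chains, the pre-T cell receptor alpha chain and the proteins that act first after receptor engagement. There were 10 of them among the 28048 genes of the data, chosen by symbol (Cd3d, Cd3e, Cd3g, Cd247, Ptcra, Lat, Lck, Zap70, Themis and Trat1), and all 10 were found. The rule uses gene names and no measured value.

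In T cells, CD3δ, CD3ε, CD3γ and the ζ chain (Cd247) form the signalling part of the T cell receptor, and pTα (Ptcra) pairs with a new β chain to make the pre-TCR. The kinase Lck phosphorylates the CD3 and ζ tails, Zap70 binds the phosphorylated tails and then phosphorylates the scaffold Lat, while Themis tunes signalling during thymic selection and Trat1 binds the receptor complex. Many of these genes begin to be transcribed in double-negative (DN) progenitors, before any receptor is assembled. Bcl11b is a transcription factor that is switched on at T-cell commitment.

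Transcripts of single fixed cells were counted by sci-RNA-seq3, a combinatorial indexing method whose unit is the unique molecular identifier (UMI), 1 per captured RNA molecule. WT mice were C57BL/6 Bcl11b YFP/YFP, and ΔTE mice were Bcl11b YFPΔEnh/YFPΔEnh, which lack the distal timing enhancer of Bcl11b on both alleles, so that both genotypes carried the YFP reporter. c-Kit-enriched marrow of male and female mice aged 2 to 4 months, pooled from 6 to 8 mice per genotype, was cultured on OP9-DL1, a stromal line that presents a Notch ligand. The sorted DN1 cells carried CD44 without CD25. DN2a and DN2b cells carried both, and were separated by a Bcl11b reporter that was off in DN2a and on in DN2b. Each population was re-cultured for 4 days with cytokines that allow T and innate lymphoid cell (ILC) fates. Antibodies to CD3ε, NK1.1 and other lineage proteins were part of the sorting stain, so the starting cells had been selected partly on the protein of one gene described here.

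Each of the 6 conditions was 1 library, split over 3 reverse-transcription wells, and no barcode occurred in 2 libraries. The sources used here do not state whether the 3 wells of a library hold 1 culture. No replicate culture is named, so the wells were not taken as replicates, and no test was made. Levels are UMIs summed over cells, per 1000000 UMIs on non-mitochondrial genes (CPM), and every interval is an exact 95% interval for counting error alone. A gene was called higher or lower when its ratio passed 1.5-fold with at least 30 UMIs over both libraries. As a second description, the 3 wells of one library were said to lie apart when all were above or all below the 3 wells of the other.

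The libraries held between 8007395 and 14555100 UMIs in all barcodes, and 3401 to 19489 cells each passed the filters (60671 in all), with a median of 386 to 485 UMIs per cell. The 10 genes together had 28087 UMIs in these cells. Among barcodes within the gene and UMI limits, the mitochondrial limit took out from 2.59% (WT DN2a) to 56.6% (ΔTE DN2b), and 40.9% in WT DN2b. The WT DN2a library stood apart in its mitochondrial share, with a median of 13.3% against 20.9% to 23.9% in the other 5, so that genotype and this property cannot be told apart for the DN2a start. The second well of ΔTE DN2a also stood apart, since 13.1% of its cells carried OP9-DL1 stromal markers (3 or more UMIs of 8 collagen and other mesenchymal genes), against 2.64% and 1.65% in its companion wells. Values without this well are given where it moved them.

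Bcl11b itself was checked first. Its level in the DN1, DN2a and DN2b cultures was 303, 622 and 1105 CPM in WT, and 115, 326 and 705 CPM in ΔTE. The log2 ratios of ΔTE to WT were −1.39 (−1.54 to −1.25), −0.93 (−1.02 to −0.85) and −0.65 (−0.76 to −0.54), and all ΔTE wells were below all WT wells in each start. The deletion removes a distant enhancer and leaves the transcribed sequence of Bcl11b in place, with the YFP reporter in both genotypes. Where the Bcl11b reads fall along the transcript was not examined.

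The positions of the 10 genes were taken by Ensembl identifier from GENCODE M21 on GRCm38. The submitters' processing notes name mm9, and the files carry no coordinates. Cd3g (chr9:44969572-44980431, minus strand) and Cd3d (chr9:44981786-44987339, plus strand) lie head to head with 1355 bases between their starts, and Cd3e (chr9:44998740-45009627, minus strand) follows 11401 bases further on. Cd247 (chr1:165788681-165877277) and Zap70 (chr1:36761798-36782818) are far apart on chromosome 1. Lck lies at chr4:129548344-129573641, Lat at chr7:126363824-126369570, Themis at chr10:28668360-28883818, Trat1 at chr16:48730774-48772021 and Ptcra at chr17:46755663-46763712. Cd247 overlaps Pou2f1 on the opposite strand, and how strand was treated in the counting is not given in the sources used here.

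Examples of short stretches around known motif letters in the promoters are shown for some of the 10 genes. They come from RefSeq promoter windows on GRCm38.p6, which run from 250 bases before to 50 bases after each start and were found for all 10 genes (14 windows). The capitals mark the motif, searched on both strands so that some lines show its reverse complement, and each line runs 5′ to 3′ on the strand of the gene.

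Cd3d, ETS letters 5 bases before the start, chr9:44981769-44981798: tcctcccccactCTTCCTttttctgaatac

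Cd3e, ETS letters 17 bases before the start, chr9:45009611-45009640: gtcccctctacaCTTCCTgtgtggggttca

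Cd3g, E-box letters 23 bases after the start, chr9:44980391-44980420: gtggagccaggcCAGCTGctgcacaggctg

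Ptcra, E-box letters 49 bases before the start, chr17:46763744-46763773: gcagctggggtaCAGCTGggtctgtgatct

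Lck, RUNX letters 58 bases before the start, chr4:129573682-129573711: gtgctggaggctTGTGGTtgggttgctggg

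Trat1, RUNX letters 76 bases before the start, chr16:48772121-48772150: gaagcctctatcACCACAtttcctgtttat

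The ETS letters AGGAAG occurred in 8 of the 14 windows, and in 35.4% of all 32851 mouse promoter windows. The 6 genes with them were Cd3d, Cd3e, Cd247, Lat, Lck and Zap70, and Cd3g had none. Stretches with ETS letters are shown for Cd3d and Cd3e only, and not every copy, so the lines do not contrast the CD3 chains with other members. The E-box CAGCTG occurred in 2 windows, those of Cd3g and Ptcra, against 16.3% of all windows. A further copy in the Ptcra window, 60 bases before the start, appears in lower case at the head of its line. Another copy, 21 bases after the start, is not shown. The RUNX letters TGTGGT occurred in 4 windows, of Lat, Lck, Trat1 and Zap70, against 16.8%. No window of a CD3 chain gene held them, which says only that these letters were not in this window. The GATA letters AGATAA were in the Cd3g window alone, against 11.2% of all windows. These matches describe sequence and were not measured as binding sites.

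The first question was whether the receptor genes differed between ΔTE and WT cultures that began from the same stage. Of the 10 genes, 8 reached 30 UMIs in the DN1 cultures, 9 in the DN2a cultures and 8 in the DN2b cultures. Ptcra had too few UMIs in 2 starts, and Zap70 in all 3.

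For the DN1 start, 3 of the 8 measured genes were lower in ΔTE and 1 was higher, beside 3.85% and 2.48% of all 10866 genes measured in this comparison. The median log2 ratio was 0.00 over the 8 genes and 0.00 over all genes. The wells lay apart for 4 of the 8, beside 17.0% of all genes. The 3 lower genes were the CD3 chains, and the higher gene was Themis. At equal depth per cell, described below, none of the 3 chains exceeded its share in stromal cells by intervals for this start. Themis exceeded it in ΔTE only.

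For the DN2a start, 4 of 9 genes were lower and 1 was higher, beside 7.36% and 3.08% of all 11638 genes. The wells lay apart for 5 of the 9, beside 13.6%. The CD3 chains and Ptcra were lower, and Themis was again the higher one. The median log2 ratio was −0.13 over the 9 genes and −0.02 over all genes.

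For the DN2b start, 1 of 8 genes was lower (Cd3e) and 1 was higher (Themis), beside 6.86% and 5.20% of all 9429 genes. The wells lay apart for 3 of the 8, beside 16.9%. The count of 2 called genes was 3 without the first ΔTE DN2b well, where Cd247 passed the threshold (log2 ratio 0.63), and 1 without the third, where Themis did not reach it (0.56). The median log2 ratio was −0.11 over the 8 genes and 0.00 over all genes.

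**Figure D1:**
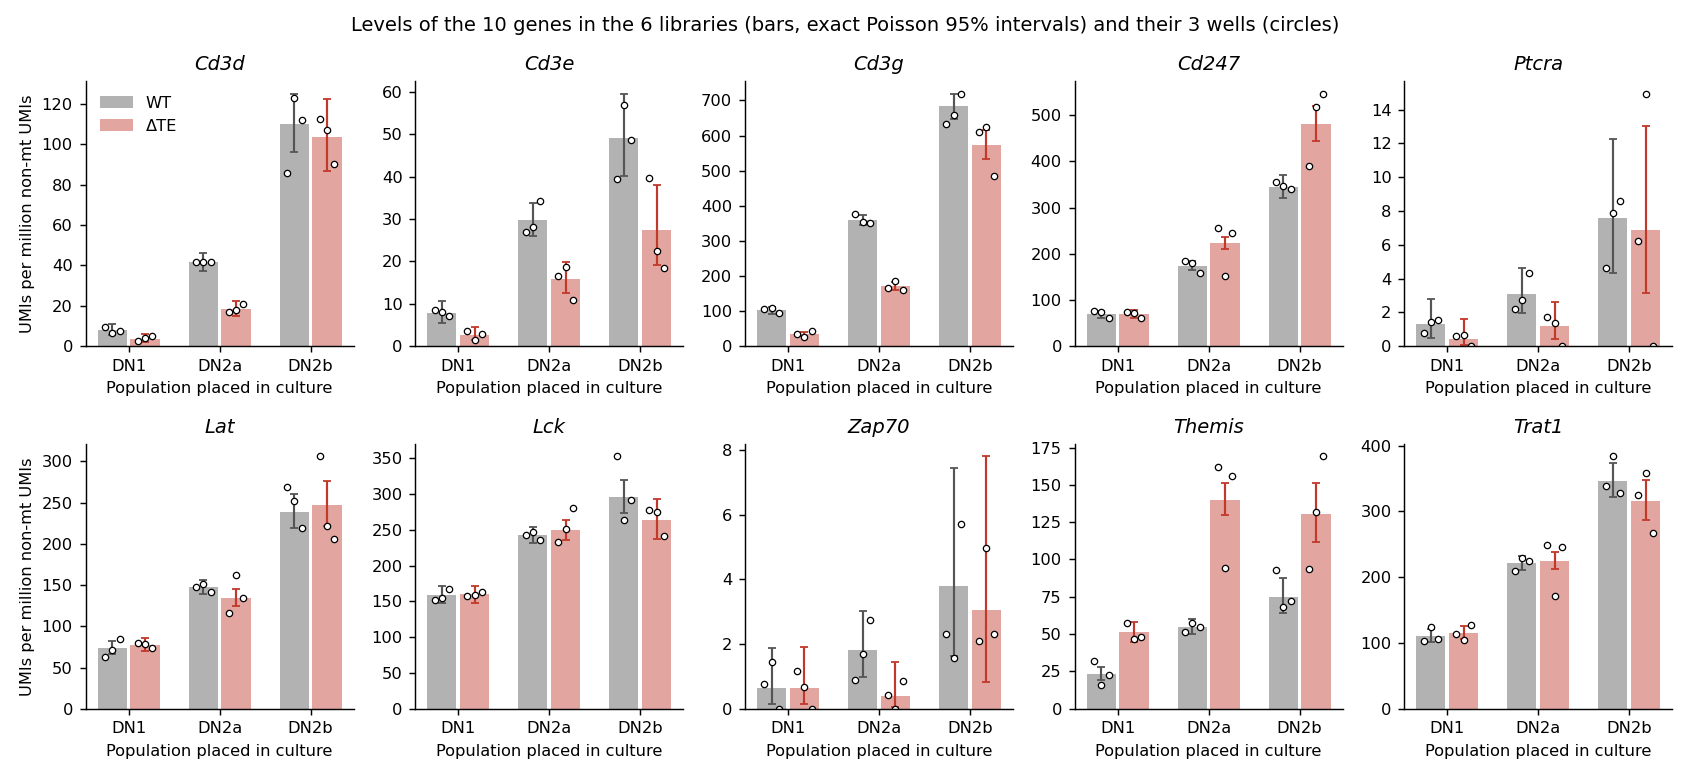
Level of each of the 10 genes in UMIs per 1000000 non-mitochondrial UMIs (vertical axis, linear, from 0), by the population placed in culture, for WT (grey) and ΔTE (red). Bars give the library, lines its exact Poisson 95% interval and circles its 3 wells. Cd3d, Cd3e and Cd3g are lower in ΔTE for the DN1 and DN2a starts, and Themis is higher in ΔTE for all 3 starts.

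Cd3g encodes the CD3γ chain and had the most UMIs of the 10 genes. In the DN1 cultures its wells read 105, 107 and 95.3 CPM in WT and 33.5, 24.9 and 41.8 CPM in ΔTE, from 472 and 152 UMIs. All 3 ΔTE wells were below the lowest WT well, and the log2 ratio was −1.61 (−1.89 to −1.35).

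In the DN2a cultures the Cd3g wells read 376, 355 and 351 CPM in WT and 166, 186 and 158 CPM in ΔTE. The groups were again separate, with a log2 ratio of −1.08 (−1.19 to −0.97). In the DN2b cultures they read 633, 658 and 719 CPM in WT and 610.1, 625 and 484 CPM in ΔTE. The wells lay just apart there, but the ratio of −0.25 (−0.38 to −0.13) did not reach 1.5-fold.

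Cd3d, for the CD3δ chain, had far fewer UMIs in the DN1 cultures, 36 in WT and 17 in ΔTE. Its DN1 wells read 9.22, 6.49 and 7.65 CPM in WT and 2.31, 4.05 and 5.13 CPM in ΔTE, a log2 ratio of −1.06 (−1.99 to −0.19). With cells of at most 20% mitochondrial UMIs this ratio was −0.17 (−1.62 to 1.23), under the threshold. In the DN2a cultures the wells read 41.5, 41.6 and 41.7 CPM in WT and 17.0, 18.1 and 21.1 CPM in ΔTE. All ΔTE wells were below all WT wells, and the ratio was −1.18 (−1.54 to −0.84). In the DN2b cultures the wells were mixed, at 85.8, 123 and 112 CPM in WT and 112, 107 and 90.3 CPM in ΔTE, with a ratio of −0.09 (−0.40 to 0.22).

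Cd3e encodes CD3ε, the chain against which the sorting antibody was directed. It had 36 UMIs in WT and 12 in ΔTE in the DN1 cultures, with wells at 8.45, 7.93 and 7.14 CPM against 3.47, 1.35 and 2.93 CPM and a log2 ratio of −1.56 (−2.64 to −0.59). In the DN2a cultures its wells read 26.9, 28.1 and 34.2 CPM in WT and 16.6, 18.7 and 10.96 CPM in ΔTE, a ratio of −0.90 (−1.29 to −0.53). Both starts had wells that did not overlap. For the DN2b start the ratio was −0.84 (−1.43 to −0.28) from 104 and 36 UMIs, but the first ΔTE well (39.6 CPM) was above the first WT well (39.4 CPM). This call was lost with no mitochondrial limit (−0.29, −0.64 to 0.06), with at most 20% mitochondrial UMIs (−0.40) and without cells that carried a γδ-type scavenger receptor UMI (−0.49).

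The sum of the 3 CD3 chains in the DN1 cultures was 117 CPM (107 to 127) for WT, beside 39.5 CPM (34.0 to 45.7) for ΔTE. For DN2a the WT sum was 431 CPM (416 to 446), beside 205 CPM (192 to 217) for ΔTE. For DN2b the WT sum reached 843 CPM (804 to 883), beside 704 CPM (659.6 to 751) for ΔTE. The log2 ratios were −1.57 (−1.82 to −1.32), −1.08 (−1.18 to −0.97) and −0.26 (−0.37 to −0.14). The wells lay apart for the DN1 and DN2a starts and overlapped for the DN2b start, where 2 ΔTE wells (762 and 755 CPM) were close to the lowest WT well (758 CPM). The ratio for the DN2a start was 0.49 (0.23 to 0.75) above that for the DN1 start, and the ratio for the DN2b start was 0.82 (0.66 to 0.97) above that for the DN2a start. These differences of log2 ratios are larger than counting error. They have no culture replicate, and in summed cells a smaller number of CD3-expressing cells and less CD3 RNA in each cell cannot be told apart.

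Cd247 encodes the ζ chain of the same receptor complex, and its values did not follow those of Cd3d, Cd3e and Cd3g. In the DN1 cultures the library levels were 69.0 CPM in WT and 69.0 CPM in ΔTE, with a log2 ratio of 0.00 (−0.23 to 0.23). In the DN2a cultures they were 174 CPM and 222 CPM, a ratio of 0.35 (0.24 to 0.47), and the wells overlapped because the second ΔTE well read 153 CPM beside 256 and 245 CPM. Without that well the ratio was 0.54. In the DN2b cultures all ΔTE wells (389, 518 and 547 CPM) were above all WT wells (355, 347 and 341 CPM), with a ratio of 0.48 (0.32 to 0.63). None of these ratios reached 1.5-fold.

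Ptcra, the pre-TCR alpha chain gene, was close to the limit of detection, with 63 UMIs in all libraries together. It had 6 UMIs in WT and 2 in ΔTE in the DN1 cultures, 24 and 6 in the DN2a cultures, and 16 and 9 in the DN2b cultures. The DN2a pair, with exactly the minimum of 30 UMIs, gave a log2 ratio of −1.36 (−2.94 to −0.03), and its ΔTE wells (1.75, 1.34 and 0 CPM) were below its WT wells (2.21, 2.71 and 4.32 CPM). The upper bound of this interval lies near equality, so the depth carries little precision here.

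Lck, the kinase that starts the phosphorylation cascade, had nearly equal levels in both genotypes. It read 159 CPM in WT and 159.7 CPM in ΔTE in the DN1 cultures, 242 and 249.6 CPM in the DN2a cultures, and 295 and 264 CPM in the DN2b cultures. The log2 ratios were 0.00 (−0.14 to 0.15), 0.04 (−0.06 to 0.15) and −0.16 (−0.35 to 0.03). All intervals lie well inside 1.5-fold, and the wells overlapped in each start.

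Lat, the membrane scaffold phosphorylated by Zap70, behaved in the same way. Its levels were 74.2 and 77.3 CPM, 147 and 135 CPM, and 239 and 247 CPM in the WT and ΔTE cultures of the DN1, DN2a and DN2b starts. The ratios were 0.06 (−0.16 to 0.28), −0.13 (−0.27 to 0.01) and 0.05 (−0.16 to 0.25), with overlapping wells. Trat1, a transmembrane adaptor, had ratios of 0.05 (−0.13 to 0.23), 0.02 (−0.09 to 0.13) and −0.13 (−0.31 to 0.04), also with overlapping wells. Zap70, which couples the phosphorylated tails to Lat, had 34 UMIs in all libraries and 2 to 14 in each, under the minimum of 30 for a call in every comparison. Its counts were 14 in WT and 2 in ΔTE in the DN2a cultures, a log2 ratio of −2.16 with a wide interval that ends near equality (−5.34 to −0.04). They were 3 and 3 in the DN1 cultures and 8 and 4 in the DN2b cultures, where no difference was detectable at this depth.

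Themis had the opposite direction to the CD3 chains in each start. In the DN1 cultures its wells read 32.3, 15.9 and 22.4 CPM in WT and 57.2, 46.5 and 48.4 CPM in ΔTE. All ΔTE wells were above all WT wells, and the log2 ratio was 1.14 (0.80 to 1.48). In the DN2a cultures the wells read 51.6, 57.5 and 55.0 CPM in WT and 162, 94.3 and 156 CPM in ΔTE. The ΔTE wells were again all higher, the ratio was 1.35 (1.17 to 1.53), and without the second ΔTE well, the one rich in stromal cells, it was 1.54. In the DN2b cultures the wells read 92.7, 67.9 and 72.3 CPM in WT and 93.7, 132 and 169 CPM in ΔTE. The lowest ΔTE well exceeded the highest WT well only slightly, and the ratio was 0.79 (0.47 to 1.11). This DN2b call was lost without cells that carried ILC and NK markers (0.17, −0.26 to 0.59) and with at most 20% mitochondrial UMIs (0.50, −0.11 to 1.09), while the DN1 and DN2a calls were kept in both settings.

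**Figure D2:**
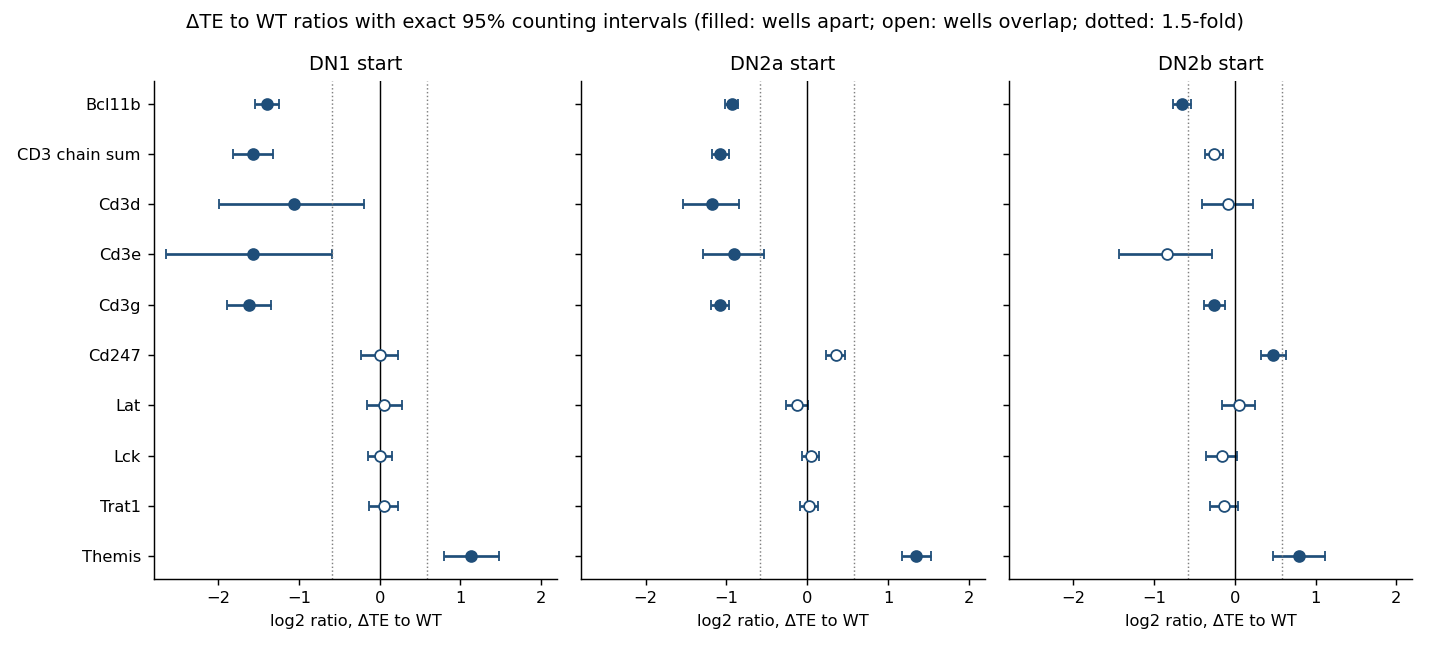
Log2 ratio of ΔTE to WT (horizontal axis) with its exact 95% counting interval for Bcl11b, the CD3 chain sum and each gene with at least 30 UMIs in all 3 starts, 1 panel per start. Filled points have wells that lie apart, open points have overlapping wells, and dotted lines mark 1.5-fold. The CD3 chain sum moves from −1.57 to −1.08 and −0.26 from the DN1 to the DN2b start, Cd247, Lat, Lck and Trat1 lie between the dotted lines, and Themis lies to the right of them.

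Markers of other cell types also differed between the genotypes. The ILC and NK list (15 genes) summed to 1791, 2036 and 1858 CPM in WT and to 2323, 3181 and 3349 CPM in ΔTE, with 2 of 7, 7 of 10 and 10 of 11 measured genes higher in ΔTE for the DN1, DN2a and DN2b starts and none lower. Gzma was its most abundant gene, and Klrb1c and Eomes were at 0 in both DN1 cultures. The stroma list (8 genes) was lower in ΔTE, at 380 against 652 CPM, 1596 against 2397 CPM and 466 against 993 CPM, with 7, 5 and 8 of 8 genes past 1.5-fold. A list of γδ T-cell genes (4 of them in the files) summed to 48.6, 158 and 591 CPM in WT and 45.7, 224 and 853 CPM in ΔTE, with 1 of 3, 2 of 4 and 2 of 4 genes higher. The myeloid list (12 genes) stood at 593 CPM in WT beside 434 CPM in ΔTE for the DN1 start, with 6 genes lower and 1 higher, whereas for the DN2a start 4 of 7 measured genes were higher. In the DN2a cultures both measured B-cell genes were lower in ΔTE, and 3 of 5 measured progenitor genes were lower in the DN2b cultures. The part of these other cell types in the differences of the 10 genes was not tested beyond the settings that follow.

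Each of these lists was also used to leave out cells. Without cells carrying the stroma list, the CD3 chain ratios were −1.57, −1.12 and −0.30 and the Themis ratios 1.13, 1.31 and 0.75. Without cells carrying a UMI of 7 genes more specific to ILC and NK cells (Il2rb, Icos, Klrb1c, Klrd1, Ncr1, Eomes and Cxcr6), they were −1.55, −1.07 and −0.20 for the CD3 chains and 1.11, 1.30 and 0.70 for Themis. Without cells carrying a UMI of Cd163l1 or 5830411N06Rik, scavenger receptor genes of γδ T cells, they were −1.62, −1.13 and −0.17, and 1.14, 1.33 and 0.80. For the DN1 and DN2a starts, and for Themis in all starts, the differences were about as large in the remaining cells. The CD3 chain ratio for the DN2b start, −0.26 in all kept cells, was smaller in size without specific ILC and NK or scavenger receptor cells. These 3 settings could move the differences little where few cells were taken out. Per library they took out 1.32% to 8.96% (stroma list), 0.320% to 8.35% (specific UMI) and 0.686% to 21.1% (scavenger receptor UMI) of the cells. At this depth a cell without a marker UMI can still be of the marked type, so these settings do not measure what such cells contribute. Without cells carrying at least 2 UMIs of the whole ILC and NK list, the CD3 chain ratio was −0.93 for the DN2a start, and the Themis ratios were 0.81, 1.05 and 0.17. How far the marked cells contribute to the Themis difference was not tested further.

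Within the excluded classes the members could be described too. In the scavenger receptor cells (75, 735 and 735 cells in WT and 90, 654 and 716 in ΔTE), the CD3 chains stood at 601, 929 and 1217 CPM in WT and 296, 467 and 783 CPM in ΔTE. The ratio for the DN2b start was −0.64 (−0.87 to −0.40) there, and −0.17 (−0.30 to −0.04) in all other cells. Themis stood at 115 CPM in these WT DN2b cells and 177 CPM in the ΔTE ones. In cells with a specific ILC or NK UMI, Themis had 39 UMIs in 215 ΔTE DN2a cells (395 CPM, 281 to 539.9) and 3 UMIs in 104 WT DN2a cells (67.4 CPM, 13.9 to 197), and Cd247 had 39 and 7 UMIs in the same cells (1.33, 0.15 to 2.73). For the DN2b start the Cd247 ratio in this class was 0.09 (−0.51 to 0.71).

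Cells were also divided by whether they held a Bcl11b UMI, which at this depth is a sampled mark and not a full account of expression. In cells with a Bcl11b UMI, the CD3 chains stood at 230.3 CPM in WT beside 197 CPM in ΔTE for the DN1 start, a log2 ratio of −0.23 (−0.75 to 0.27). In cells without one they stood at 101 and 31.3 CPM, a ratio of −1.70 (−1.99 to −1.42). These intervals do not overlap, and the cells with a Bcl11b UMI gave only 129 and 45 UMIs. For the DN2a start the ratio was −0.88 (−1.09 to −0.67) with and −1.02 (−1.14 to −0.90) without a Bcl11b UMI. For the DN2b start it was −0.22 (−0.43 to −0.03) and −0.16 (−0.30 to −0.01), with overlapping intervals in both later starts.

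Themis was higher in ΔTE in cells without a Bcl11b UMI in every start, with ratios of 1.42 (1.02 to 1.84), 1.43 (1.22 to 1.63) and 1.13 (0.72 to 1.54). In cells with one the ratios were 1.21 (0.53 to 1.90), 1.28 (0.90 to 1.66) and 0.27 (−0.33 to 0.86). Cd247 had ratios between 0.38 and 0.50 in cells with a Bcl11b UMI and between 0.09 and 0.53 in cells without one.

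**Figure D3:**
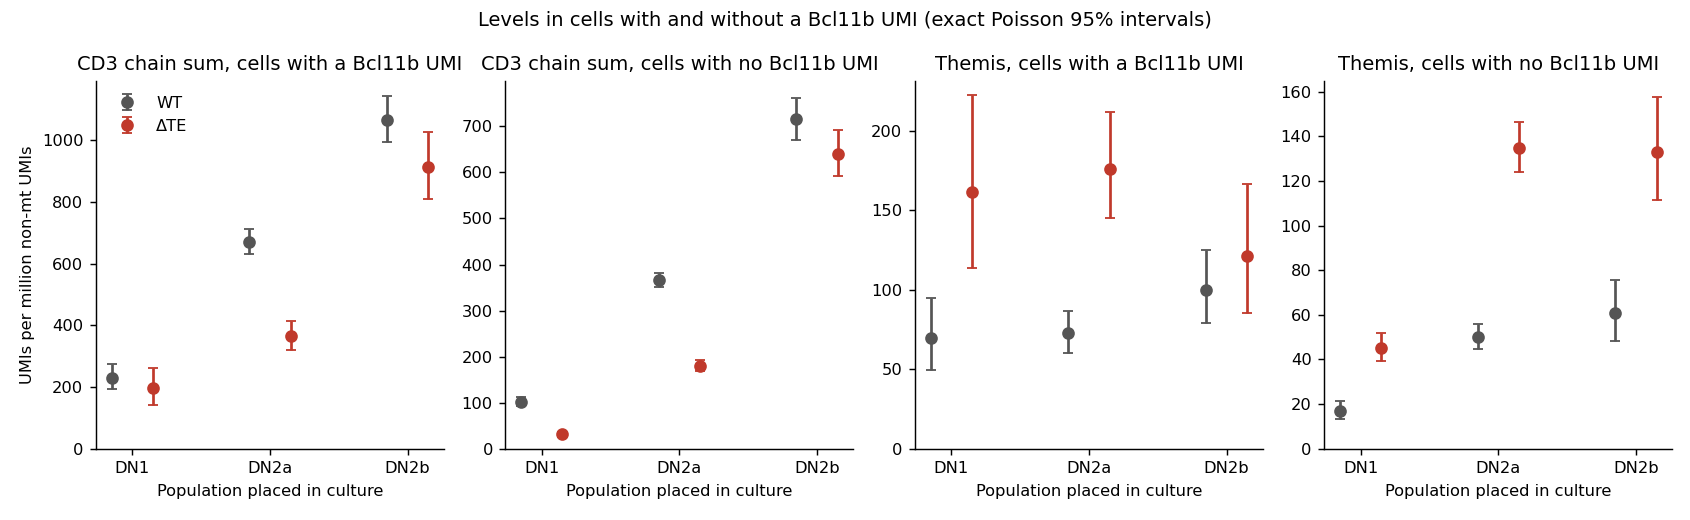
Level of the CD3 chain sum and of Themis (UMIs per 1000000 non-mitochondrial UMIs, linear axes from 0 with a scale of their own) in cells with and without a Bcl11b UMI, by the population placed in culture, for WT (grey) and ΔTE (red), with exact Poisson 95% intervals. For the DN1 start the CD3 intervals overlap in cells with a Bcl11b UMI and are separate in cells without one, while Themis is higher in ΔTE in 5 of the 6 pairs by separate intervals.

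To compare cells at 1 depth, each cell was thinned to 300 UMIs and cells with fewer were left out. Among cells without the stroma list, a UMI of any CD3 chain was found in 2.15% (203 of 9436), 8.91% (1178 of 13219) and 15.6% (664 of 4262) of the WT DN1, DN2a and DN2b cells. In ΔTE the shares were 0.777% (71 of 9141), 4.19% (397 of 9473) and 12.9% (374 of 2896). The exact binomial intervals were separate in each start (1.87% to 2.46% against 0.607% to 0.979%, 8.43% to 9.41% against 3.80% to 4.61%, and 14.5% to 16.7% against 11.7% to 14.2%). Unthinned, the shares were 3.17%, 11.7% and 22.4% in WT and 1.32%, 5.98% and 18.3% in ΔTE.

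Stromal cells should hold no CD3 RNA and give the background. Over all libraries 1.99% of them (55 of 2757, interval 1.51% to 2.59%) held a CD3 chain UMI, and 42 of the 55 came from WT DN2a, the library with the most stromal cells. The stromal share was also higher there, at 2.71% (42 of 1547) against 0.923% (6 of 650) in ΔTE DN2a. Unthinned, the CD3 chain log2 ratio in stromal cells was −1.49 (−2.29 to −0.77) for DN2a (18 ΔTE and 129 WT UMIs). It was −2.32 (−7.77 to 0.53) for DN1 and 0.95 (−0.93 to 2.59) for DN2b, on few UMIs. For the DN2a start the background was therefore lower in ΔTE too, which the pooled share hides. What it adds to the CD3 shares was not tested. Within the DN1 libraries the stromal shares were 0.897% (2 of 223) in WT and 0% (0 of 143, interval up to 2.55%) in ΔTE. The DN1 shares therefore cannot be separated from background, whereas those of the DN2a and DN2b starts were above the pooled background. Singly, the DN1 shares in WT and ΔTE were 0.212% and 0.0547% for Cd3d (pooled stroma 0.290%). They were 0.170% and 0.0766% for Cd3e (0.145%) and 1.81% and 0.645% for Cd3g (1.63%), none above stroma by intervals. In ΔTE DN2a, Cd3d (0.429% to 0.743%) and Cd3e (0.329% to 0.611%) also overlapped their pooled stromal intervals. Within ΔTE DN2b alone only 43 stromal cells were left (1 with a CD3 chain UMI, 2.33%, interval 0.0589% to 12.3%), too few to separate the library from its own background by intervals. Before thinning, the median depth was 553 UMIs in stromal cells and 376 to 485 UMIs in the others.

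A Cd247 UMI was found in 1.62%, 4.80% and 7.60% of thinned WT cells and in 1.41%, 5.55% and 10.6% of thinned ΔTE cells, beside 0.617% of stromal cells. The DN2b intervals were separate (6.82% to 8.44% and 9.47% to 11.7%). Themis was found in 0.509%, 1.45% and 1.41% of WT cells and in 1.13%, 2.79% and 2.62% of ΔTE cells, beside 0.290% of stromal cells. Its WT DN1 interval (0.375% to 0.674%) overlapped the stromal one (0.125% to 0.571%). UMIs of at least 2 of the 10 genes were found in 8.05% of WT and 7.87% of ΔTE cells for the DN2b start, and in 4.53% and 3.29% for the DN2a start. At least 3 of them were found in 11 of 9436 WT DN1 cells and in 0 of 9141 ΔTE DN1 cells, an exact upper limit of 0.0403%.

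**Figure D4:**
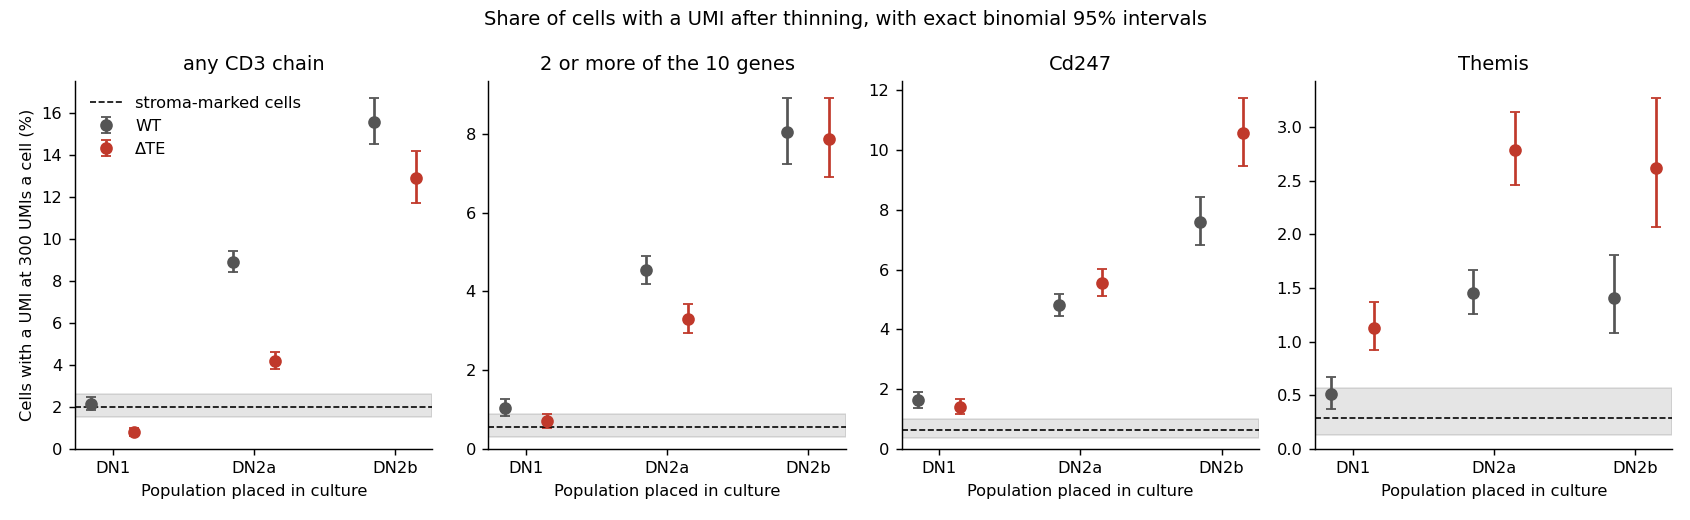
Percentage of cells without stromal markers that held a UMI of any CD3 chain, of at least 2 of the 10 genes, of Cd247 and of Themis, after each cell was thinned to 300 UMIs, by the population placed in culture (WT grey, ΔTE red, exact binomial 95% intervals, linear axes from 0 with a scale of their own). The dashed line and band give the pooled share in stroma-marked cells, 1.99% for any CD3 chain. The DN1 points for the CD3 chains lie within this band (WT) or below it (ΔTE), and those of the DN2a and DN2b starts lie above it.

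Other genes were counted in all thinned cells, stromal ones included, that did or did not hold a CD3 chain UMI. A Bcl11b UMI was found in 16.1%, 20.4% and 26.3% of the CD3-holding WT cells of the DN1, DN2a and DN2b starts and in 5.73%, 12.97% and 20.1% of the others. In ΔTE it was found in 16.9%, 12.4% and 19.5% of the CD3-holding cells and in 2.42%, 6.64% and 12.2% of the others. The intervals of the classes were separate in all 6 libraries. For the DN1 start the CD3-holding classes were small, at 205 WT and 71 ΔTE cells. A Cd247 UMI was more frequent in CD3-holding cells, by separate intervals, in WT DN1 (4.88% against 1.51%) and WT DN2a (7.95% against 4.04%), whereas in the DN2b cultures the shares were 7.04% against 7.45% in WT and 9.60% against 10.5% in ΔTE. Themis had overlapping intervals between the classes in the WT DN2a library (2.13% against 1.27%), in the ΔTE DN2a library (2.98% against 2.61%) and in the other 4.

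The second question was how the genes differed between starts within a genotype. All 9 genes measured in WT were higher in the DN2a than in the DN1 cultures, beside 13.9% of all genes, and the wells lay apart for all 9, beside 43.1% of all genes. Of 9 genes, 7 were higher again in WT DN2b than in WT DN2a, beside 2.88% of all genes. The exceptions were Lck (log2 ratio 0.28) and Themis (0.45). The wells lay apart for all 9 here too, beside 28.4%.

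In ΔTE, 8 of 8 measured genes were higher in the DN2a than in the DN1 cultures, beside 10.7% of all genes, with the wells apart for all 8, beside 20.7%. Of 8 genes, 5 were higher in ΔTE DN2b than in ΔTE DN2a, beside 4.56%, and the wells lay apart for 5, beside 14.2%. The genes that did not pass were Lck (0.08), Themis (−0.11) and Trat1 (0.49). The DN2a library of each genotype enters both of these comparisons.

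The sum of the CD3 chains differed more between starts in ΔTE than in WT. This follows by arithmetic from the ΔTE to WT ratios given above for the same libraries and is no further result. From DN1 to DN2a their WT log2 ratio was 1.88 (1.75 to 2.01), beside a ΔTE value of 2.37 (2.14 to 2.61). From DN2a to DN2b the WT ratio was 0.97 (0.88 to 1.05), beside a ΔTE value of 1.78 (1.65 to 1.91). Cd3d, the δ chain gene, had a DN2b to DN2a ratio of 1.40 (1.16 to 1.65) in WT and 2.50 (2.11 to 2.90) in ΔTE. Not every chain showed this in both steps. The ΔTE to WT ratio of Cd3d changed from the DN1 to the DN2a start by −0.12 (−1.02 to 0.77), and that of Cd3e from the DN2a to the DN2b start by 0.06 (−0.60 to 0.72). For Cd247 the DN2b to DN2a ratio was 0.99 (0.86 to 1.12) in WT beside 1.11 (0.97 to 1.25) in ΔTE.

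The other genes of the pathway were taken from a list of surface partners, kinases, phosphatases and adaptors, 45 of which were in the files. The T cell receptor constant genes were not analysed here. Of the 45, 39 were measured in each genotype comparison. In the DN1 cultures 2 were higher in ΔTE and 1 was lower, in the DN2a cultures 2 and 1, and in the DN2b cultures 5 and 1. Over all genes 2.48% were higher and 3.85% lower in the DN1 comparison, 3.08% and 7.36% in the DN2a comparison, and 5.20% and 6.86% in the DN2b comparison, so these counts lie near the background, apart from the higher count in the DN2b cultures. The wells lay apart for all of these called genes. Over the 39 measured genes, called or not, the wells lay apart for 17, 6 and 13 in the DN1, DN2a and DN2b comparisons. Over all genes the shares were 17.0%, 13.6% and 16.9%. The median log2 ratio of the 39 genes was −0.01, 0.06 and 0.07 in the 3 starts.

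Txk, a Tec family kinase of T cells, was higher in ΔTE in every start, by log2 ratios of 1.01 (0.61 to 1.43), 1.03 (0.79 to 1.27) and 0.85 (0.43 to 1.28). Its levels were 16.3, 32.8 and 43.0 CPM in WT and 33.0, 67.0 and 77.7 CPM in ΔTE.

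Cd28, the costimulatory receptor, stood at 13.8 CPM in WT beside 25.1 CPM in ΔTE for the DN2a start (0.87, 0.48 to 1.25), and at 44.9 and 90.6 CPM for the DN2b start (1.01, 0.61 to 1.42). The adaptor Sh2d2a and the phosphatase Ubash3b were higher in ΔTE DN2b alone among the genotype calls, by 1.14 (0.55 to 1.73) and 1.08 (0.78 to 1.38). Whether they differed between starts was not tested.

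Cd5, a scavenger receptor family inhibitor of TCR signalling, was lower in ΔTE, at 38.1 CPM in WT beside 19.7 CPM in ΔTE for the DN2a start (−0.95, −1.30 to −0.62) and 39.2 and 20.6 CPM for the DN2b start (−0.93, −1.62 to −0.29). Its DN1 ratio of −0.43 (−0.79 to −0.08) did not reach 1.5-fold. Cd6, a related receptor, had 21 UMIs in WT and 9 in ΔTE in the DN1 cultures (−1.20, −2.51 to −0.01).

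Genes within 100 kb of the CD3 chain genes were compared to see whether the difference extended along the chromosome. Kmt2a, Atp5l and Ube4a, measured in every start, had log2 ratios between −0.21 and 0.14 in the 3 starts. Mpzl2, which encodes an adhesion molecule and was singled out after its values were seen, was lower in ΔTE, with 30 UMIs in WT and 3 in ΔTE for the DN2a start (−2.68, −5.03 to −0.99) and 35 and 7 for the DN2b start (−1.63, −3.05 to −0.44). Ptprk, the one measured neighbour of Themis, had ratios of −0.19, −0.41 and −0.29, opposite in sign to those of Themis and under 1.5-fold. The 3 measured neighbours of Cd247 had ratios between −0.21 and 0.15.

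Across the 6 libraries, the genes whose log2 level was most like that of the CD3 chain sum among 9793 genes were Cdkn2aip (Pearson r = 0.996), Dpp9 (0.991), Rbm42 (0.990), Bach2 (0.990) and Plekhg2 (0.989). Cdkn2aip spanned only 10.9 to 18.9 CPM over the libraries, while Bach2, a transcriptional repressor of lymphocytes, spanned 93.0 to 243 CPM. Bcl11b ranked 18 (r = 0.983). Lat ranked 178 (0.931), Trat1 209 (0.926), Lck 290 (0.908), Cd247 349 (0.896) and Themis 2509 (0.479). These values describe 6 points that differ in genotype, start and library depth at once.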

How the data were processed

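Single-cell RNA was measured by sci-RNA-seq3 in 6 libraries, 2 genotypes by 3 starts. The authors deposited UMI counts per gene and barcode, not normalized and not filtered, and they were used as deposited. The aligner is not given in the sources used here, and the submitters' processing notes name mm9. Of 28048 gene identifiers, 27924 were in GENCODE M21, which gave positions.

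Barcodes under 200 genes, above 2000 UMIs or above a mitochondrial share of 30% were removed, after the limits the study states. This left fewer cells than the study states, so the cell sets differ, and no doublet caller was run beyond the UMI limit. UMIs were summed per library and well and scaled per 1000000 on 13578 non-mitochondrial genes found in at least 15 cells, because the mitochondrial share differed between libraries. Wells were used only to describe spread within a library. Poisson, conditional ratio and Clopper-Pearson intervals (scipy 1.17.1) hold counting error only. Differences of log2 ratios used a normal approximation to counting error. With 1 library per condition no test was made. The members and lists were chosen with earlier results of these data known.

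The text names all 10 members, Bcl11b, up to 3 partner genes each way per genotype comparison with at least 30 UMIs, 1.5-fold and wells apart, and the 5 genes most like the CD3 chain sum (log2 of CPM + 1, at least 200 UMIs). A partner gene that the rule names is not reported here. Simulated counts with 200 genes changed 2-fold up or down were called in the right direction for 95.4%, 97.5% and 94.8% of the changed genes measured in the DN1, DN2a and DN2b comparisons (10761, 11542 and 9324 genes), beside 2.55%, 2.48% and 4.57% of unchanged genes. The simulation drew Poisson counts with no spread between wells, cultures or mice, so these shares hold counting error only. Scripts ran under Python 3.11.15 with pandas 2.3.3 and numpy 2.4.6. TMM factors, an alternative, came from edgeR 4.0.16 in R 4.3.3, and plots from matplotlib 3.10.9.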

Additional observations from a re-analysis of the deposited data

Results flagged for a closer look

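Barcodes that the filters left out entered no comparison above, and some of the 10 genes were higher in ΔTE than in WT among them, by at least 1.5-fold and with an interval above 0. Themis was so in barcodes with over 30% mitochondrial UMIs, with a log2 ratio of 0.79 (0.29 to 1.29) in DN1 cultures. In DN2a cultures it was 2.11 (0.72 to 4.00), and in DN2b cultures 0.98 (0.55 to 1.42). The WT side of the DN2a value held 4 UMIs. In barcodes with under 200 genes the Themis ratio was 1.40 (0.89 to 1.93) for the DN1 start and 1.12 (0.87 to 1.37) for the DN2a start. In barcodes with over 2000 UMIs it was 2.36 (0.84 to 4.16) for the DN2a start, from 16 and 5 UMIs. Lck had a ratio of 1.21 (0.03 to 2.35) for the DN2b start in barcodes with over 2000 UMIs, from 12 and 18 UMIs.

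The CD3 chain sum, which met no rule for a closer look there, had ratios of −1.47, −0.60 and 0.03 for the DN1, DN2a and DN2b starts in barcodes with over 30% mitochondrial UMIs, and −1.45, −1.13 and −0.04 in barcodes with under 200 genes. In barcodes with over 2000 UMIs they were 0.33 (−0.61 to 1.31), −1.49 (−2.27 to −0.78) and 0.05 (−0.78 to 0.80). The DN1 value there rests on 25 and 17 UMIs, and its interval does not include the −1.57 of the cells that were kept. In ΔTE DN2b the barcodes with over 30% mitochondrial UMIs held 1329 CD3 chain UMIs, beside 925 in the cells that were kept.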

How the results depend on the processing

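The 11 alternatives listed in advance and 3 chosen after seeing the data (cells with a specific ILC or NK UMI left out, cells with a scavenger receptor UMI left out, at most 5% mitochondrial UMIs) were run, and each of the 18 wells was left out in turn. The CD3 chain ratio of ΔTE to WT was −1.20 for the DN2a start per 1000000 of all UMIs, −0.93 without cells carrying the ILC and NK list and −0.95 with cells thinned to 300 UMIs, and −0.12 for the DN2b start with no mitochondrial limit. Leaving out 1 well gave −1.73 to −1.41 (DN1), −1.13 to −1.04 (DN2a) and −0.33 to −0.15 (DN2b). Between starts, the WT ratio of DN2a to DN1 was 2.03 per 1000000 of all UMIs, and the WT ratio of DN2b to DN2a was 0.82 in that setting, 0.86 with at most 20% mitochondrial UMIs and 1.07 thinned. The ΔTE ratio of DN2b to DN2a was 1.59 with at least 300 genes per cell and 1.92 with no mitochondrial limit. That of DN2a to DN1 was 2.62 without cells carrying the ILC and NK list. Leaving out 1 well gave 1.82 to 1.91, 0.90 to 1.00, 2.22 to 2.54 and 1.71 to 1.89 for WT DN2a to DN1, WT DN2b to DN2a, ΔTE DN2a to DN1 and ΔTE DN2b to DN2a. TMM scaling moved none of these values beyond its interval.

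The 4 called genes of the DN1 start were 2 with at most 20% mitochondrial UMIs and 2 when thinned, and 4 without any 1 well. The 5 of the DN2a start were 4 to 5 without 1 well. The 2 of the DN2b start were 1 with no mitochondrial limit, with at most 20% and without cells carrying the ILC and NK list. They were also 1 without scavenger receptor cells, 0 at 2-fold, and 1 to 3 without 1 well. The cause was not tested. With at most 5% mitochondrial UMIs only 7 to 194 cells were left in 5 libraries (3308 in WT DN2a). The CD3 ratios were then −2.02, −0.53 and 0.76, called genes numbered 0, 1 and 0, the ratio of DN2b to DN2a was 0.18 in WT and 1.46 in ΔTE, that of DN2a to DN1 was 3.33 in ΔTE, and the DN2a ratio of Themis reversed to −0.55 (−5.88 to 1.98), an interval that includes the main value.

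No paired analysis was possible because each condition had 1 library and the labels give no replicate numbers. Depth limited Ptcra and Zap70 most, and the DN1 values of Cd3d and Cd3e next. Well-to-well spread describes 1 library and does not replace replicate cultures, and the spread between cultures is unknown.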
